A study of Homo sapiens with 16 samples.

Results

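The libraries described here come from pancreatic progenitors that had been on latrunculin B for 6 h (n = 3) or for 3 h (n = 3). They were chosen by the treatment and time in their titles and make up 6 of the 16 libraries of the series. The cells were pancreatic progenitors at day 19 of a differentiation from SA121, a human embryonic stem cell line, in its NGN3-GFP derivative, a reporter of the endocrine gene NEUROG3. All 6 libraries therefore share 1 line, the genotype, the day and the dose of 0.5 µM, and the groups differ in the time of harvest. To place each change, 3 control libraries of 0 h from the same line were read beside them. The labels tag these controls as DMSO, the vehicle, while the series text places them before treatment. No vehicle library of 3 h or 6 h was used here, so time on the drug and time in culture cannot be told apart. The labels do not say that replicates were separate cultures, so p-values measure a spread between libraries of a group that may be technical. That spread was estimated over all 16 libraries of the series in 1 fit.

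Latrunculin B binds free actin monomers and so lets actin filaments fall apart. Free monomers hold the co-activators MRTF-A and MRTF-B away from the transcription factor SRF, and loss of filament tension keeps the co-activator YAP out of the nucleus, where it works with the TEAD factors. Immediate early genes are switched on without new protein synthesis and are usually switched off again soon. In the developing pancreas NEUROG3 starts endocrine differentiation, and the study asked what lies between the loss of actin filaments and that step.

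The 6 libraries held from 26230793 to 33515398 estimated reads. Pearson correlations of log2 CPM across genes between libraries of a group ran from 0.984 to 0.986, and these set no library of the 6 apart. LatB 3 h replicate 3 did lie off the other libraries of 3 h for some genes named below, among them FOS, PER2 and DUSP6. Counts without it are given at the end. CPM is the count of a gene scaled to the size of its library. The progenitor markers PDX1, NKX6-1, SOX9, ONECUT1, GATA4, GATA6, FOXA2, MNX1 and GP2 had mean levels of 28.4 TPM (ONECUT1 at 3 h) or more, up to 1468 TPM (GP2 at 3 h), where TPM is abundance per transcript length. PTF1A, a factor of early multipotent and acinar cells, had 2 to 14 reads in each of the 6 libraries. Of 60 marker genes of other cells that passed the filter on low counts, 3 were called between 3 h and 6 h (22.2% of all genes were). TUBB3 (neural) and ZFP42 (pluripotent) were higher and SLC4A4 (duct) was lower. Of the 10 liver markers, 4 were called higher at 3 h than at 0 h (16.8% of all genes were). The summed level of this list was 1362 to 1578 CPM at 0 h. It was 2044 to 2428 CPM at 3 h and 2448 to 2745 CPM at 6 h. Its defining member ALB was at 0.33 and 0.66 CPM on average, and the part of such cells in the results was not tested. In bulk RNA, fewer cells of a type and less RNA per cell cannot be told apart.

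Between 3 h and 6 h, 3710 of 16705 genes tested (22.2%) were called at an edgeR adjusted p under 0.05. Of these, 1986 were higher at 6 h (11.9% of all tested) and 1724 were lower (10.3%). Most of these changes were small, with a median absolute log2 fold change of 0.37, and 298 genes changed by a log2 of 1 or more. The 6 h libraries did not overlap the 3 h libraries for 7319 genes (43.8%), including 3680 of those called. Each called gene was then placed by its change from 0 h. A gene began when it was not called at 3 h against 0 h, and was called at 6 h against 0 h in the direction of its later change; of all genes tested, 31.6% were called at 3 h and 43.3% at 6 h against 0 h. It grew when it was called at 3 h and moved on in the same direction, and it reversed when it was called at 3 h and then moved the other way. These comparisons share libraries, so noise in the 3 h libraries alone favours reversal, and the classes are counts with no test of their own.

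By this rule 1531 genes began (9.16% of all tested), 797 upward and 734 downward. Another 728 grew (4.36%), 410 upward and 318 downward, and 1076 reversed (6.44%). Upward changes made up 56.3% of the growing genes, and 37.2% with library size as the only scaling. Of the reversing genes, 686 were back at a level not called against 0 h, 303 were part way back and 87 had gone past it. The remaining 375 had no class. A direct test of the change from 3 h to 6 h against the change from 0 h to 3 h called 3181 genes (19%), among them all 1076 reversing genes, 433 that began and 60 that grew. The later change was the more positive in 48.4% of these, and in 59.8% with library size as the only scaling. Thus for most genes placed as beginning or growing, the difference between the earlier and the later 3 h was not itself called. For reversing genes the outcome was largely set by the class rule, since called changes of opposite sign add up in this difference. For growing genes, changes of the same sign offset each other in it. The shares of the classes in this test are therefore no separate evidence for the classes.

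**Figure D1:**
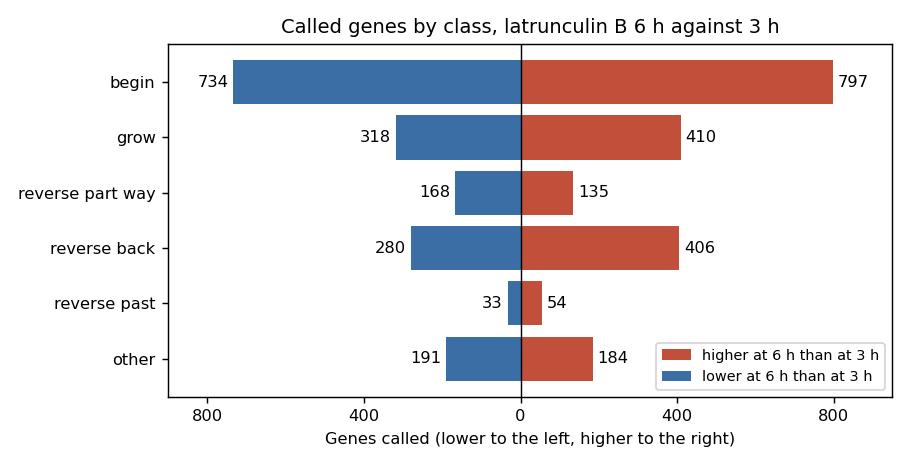
Number of genes called between 3 h and 6 h of latrunculin B (x axis), by the class each belongs to (y axis), with genes higher at 6 h to the right and genes lower at 6 h to the left. The longest bars are the 797 genes that began to rise and the 734 that began to fall; among reversing genes, 406 that were higher at 6 h and 280 that were lower were back at a level not called against 0 h.

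The genes of the next paragraphs were ranked among called genes with a mean log2 CPM of 3 or more. Larger changes at lower levels, such as that of INHBB (described with the TGF-beta list), are thus left aside here. By the same rule the libraries of 3 h and 6 h did not overlap, so their lack of overlap is no separate evidence. The largest rises of this kind that began after 3 h were in TENM3, PAK5, DAB1 and TMEM163. TENM3, a teneurin adhesion receptor of neurons (ENSG00000218336.9; GRCh38 chromosome 4, 182143987 to 182803024), stood at 115, 102 and 107 CPM at 0 h, at 105, 107 and 89.7 CPM at 3 h and at 399.7, 365 and 360.04 CPM at 6 h, in the order of replicates. All 6 h libraries were above all others, and the log2 fold change from 3 h to 6 h was 1.90 (SE 0.13, adjusted p 3.08e-06 by edgeR). PAK5, a p21-activated kinase, went from 5.72, 4.62 and 3.99 CPM at 3 h to 18.7, 19 and 17.1 CPM at 6 h, a change of 1.93 (SE 0.16, adjusted p 6.01e-06 by edgeR). DAB1, an adaptor of reelin signalling, went from 4.25, 4.55 and 3.1 CPM to 14.7, 14.8 and 13.3 CPM, a change of 1.84 (SE 0.18, adjusted p 2.3e-05 by edgeR). Neither gene was called at 3 h against 0 h (-0.35 and -0.38 on the log2 scale). TMEM163, a zinc transporter, rose by 1.80 (SE 0.24, adjusted p 0.000188 by edgeR). Its means ± SD over 3 libraries were 5.58 ± 0.492 CPM at 3 h and 19.4 ± 2.04 CPM at 6 h.

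Among the largest falls that began after 3 h was MAML2, a co-activator of Notch. It had 27.3, 23 and 24.6 CPM at 0 h, 21.4, 23.2 and 21.8 CPM at 3 h and 6.59, 6.58 and 5.47 CPM at 6 h. The groups of 3 h and 6 h did not overlap, with a log2 fold change of -1.83 (SE 0.22, adjusted p 9.69e-05 by edgeR), while the earlier change was -0.17. SCNN1G, a subunit of the epithelial sodium channel, fell from 30.9, 36.1 and 27.7 CPM to 7.27, 9.76 and 11.4 CPM (log2 -1.74, adjusted p 0.000219 by edgeR). MED12L, a Mediator subunit, fell from 15.3 ± 0.617 to 5.19 ± 0.291 CPM (SD, n = 3; log2 -1.56, adjusted p 1.45e-06 by edgeR). SAMD4A, which binds RNA, fell by 1.56 (SE 0.24, adjusted p 0.000608 by edgeR). The oxytocin receptor gene OXTR fell by 1.36 (SE 0.18, adjusted p 0.000207 by edgeR), and TLN2, a talin that ties integrins to actin, fell by 1.36 (SE 0.17, adjusted p 0.000153 by edgeR). TLN2 stood at 97.4, 112 and 77.2 CPM at 3 h and at 37.3, 37.3 and 37 CPM at 6 h.

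By the same ranking, the largest change in a direction already taken by 3 h was that of DLL4, a ligand of Notch receptors (ENSG00000128917.8; chromosome 15, 40929340 to 40939073). Its level was 2.27, 2.11 and 2.38 CPM at 0 h, 3.71, 4.69 and 3.99 CPM at 3 h and 18.9, 19.1 and 19.4 CPM at 6 h. The later change was 2.21 (SE 0.15, adjusted p 2.08e-06 by edgeR), the earlier 0.87, and the later exceeded the earlier by 1.34 (SE 0.27, adjusted p 0.00313 by edgeR). SGPP2, a phosphatase of sphingosine-1-phosphate, stood at 78.4, 72.4 and 74.8 CPM, then 124, 124 and 118 CPM, then 434, 457 and 467 CPM. Its later change of 1.89 (SE 0.10, adjusted p 8.43e-07 by edgeR) also exceeded its earlier one, by 1.19 (SE 0.18, adjusted p 0.000492 by edgeR). MET, the receptor of hepatocyte growth factor (chromosome 7, 116672196 to 116798377), had 59.1, 60.2 and 59.3 CPM at 3 h and 175, 182 and 181 CPM at 6 h, with no overlap and a log2 change of 1.59 (SE 0.15, adjusted p 1.42e-05 by edgeR). For MET and for BEX5, which rose by 1.68 (SE 0.17, adjusted p 2.3e-05 by edgeR), the later change was not called against the earlier (0.0766 and 0.167, edgeR adjusted p).

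Of the genes that fell by 3 h and fell further, the largest later falls by the rule were in MAN1C1, UNC5B, PKNOX2 and ANKRD1. MAN1C1, a mannosidase of N-glycan trimming, went from 74.6, 70.3 and 62.6 CPM to 37.7, 36.2 and 31.1 CPM and then to 16.2, 15.1 and 13.7 CPM. Each group lay below the one before, and the later change was -1.22 (SE 0.10, adjusted p 9e-06 by edgeR). UNC5B, a netrin receptor, fell by 1.12 (SE 0.15, adjusted p 0.000262 by edgeR) from 3 h to 6 h after an earlier change of -0.43. PKNOX2, a homeobox factor, fell by 1.11 (SE 0.08, adjusted p 3.91e-06 by edgeR), and the later change minus the earlier one was -0.86 (SE 0.14, adjusted p 0.000828 by edgeR).

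The reversing genes were led upward by LMX1B, a LIM homeobox factor, RFLNA, BCOR and C14orf132. LMX1B fell from 7.57, 11.2 and 10.2 CPM at 0 h to 5.15, 4.55 and 4.16 CPM at 3 h and stood at 19.5, 16.3 and 11.4 CPM at 6 h. The 6 h libraries lay above all of 3 h, with a log2 change of 1.77 (SE 0.30, adjusted p 0.00103 by edgeR). BCOR, a co-repressor that works with BCL6, went from 29.7, 30.8 and 29.7 CPM through 17.8, 20.6 and 15.2 CPM to 47.2, 46.2 and 43.1 CPM and so passed its level at 0 h. RFLNA, which binds filamin, and C14orf132 also went past it, with later changes of 1.56 (SE 0.12, adjusted p 3.91e-06 by edgeR) and 1.21 (SE 0.09, adjusted p 3.52e-06 by edgeR).

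Downward, GPR83, a receptor of the G protein-coupled family, rose from 3.71, 4.39 and 4.03 CPM to 13.6, 17.5 and 21 CPM and came back to 4.76, 4.01 and 4.27 CPM. Its change after 3 h was -1.997 (SE 0.21, adjusted p 2.99e-05 by edgeR), and at 6 h it was not called against 0 h (log2 0.10, adjusted p 0.73 by edgeR). ADAMTS15, a secreted protease of matrix proteoglycans, returned from 79.3, 82.2 and 115 CPM to 36.4, 36.6 and 37.3 CPM, where 0 h had 45.8, 38.7 and 36.5 CPM. MAML3, a Notch co-activator like MAML2, rose slightly by 3 h (log2 0.38, adjusted p 0.0167 by edgeR) and fell to 32.7, 30.2 and 29.8 CPM at 6 h, below the 69.2, 64 and 68.7 CPM of 0 h.

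The rule also named 3 genes whose values are uncertain. PPARA, a receptor of fatty acids, went from 25.1, 31.3 and 35.4 CPM to 9.74, 10.03 and 4.39 CPM (log2 -1.92, adjusted p 0.00451 by edgeR), but its change was -0.34 (edgeR adjusted p 0.0655) with an offset for transcript length. CANX had the largest rise among genes ranked in this way, 3.68 (SE 0.98, adjusted p 0.0164 by edgeR). In the 6 h libraries 1 of its transcripts, of the nonsense-mediated decay type, held 0, 1165 and 709 reads, it held 0 in the 3 h libraries, and the transcript taken as canonical held 0 in all 6. The call of CANX was lost without LatB 3 h replicate 1, LatB 3 h replicate 2 or LatB 6 h replicate 2 (edgeR adjusted p 0.0645, 0.0532 and 0.0547), with the length offset and on TPM. EEF1A1P45, which fell by 1.36 (SE 0.31, adjusted p 0.00743 by edgeR), is a pseudogene of EEF1A1 that can share reads with it.

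Immediate early genes were more often lower than higher at 6 h against 3 h. Of 26 tested, 11 were lower at 6 h than at 3 h (10.3% of all genes were) and 1, ZFP36L1, was higher, and the list's median log2 change was -0.40 against -0.01 over all genes tested. At 3 h, 18 of the 26 had been higher than at 0 h (16.8% of all genes were) and 2 lower, with a median of 0.81. Of the 12 called between 3 h and 6 h, 9 had reversed (29% of all called genes had): 5 part way, 3 back and 1 past. By the class rule, any later fall of a member called higher at 3 h counts as a reversal. When each of the 6 libraries was left out in turn, 9 to 11 members were called lower.

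FOS, a subunit of the AP-1 factor (ENSG00000170345.10; chromosome 14, 75278826 to 75282230), stood at 8.33, 7.07 and 7.47 CPM at 0 h, 12.5, 15.9 and 22.1 CPM at 3 h and 6.2, 6.81 and 7.75 CPM at 6 h. All 3 h libraries were above all others, and the change after 3 h was -1.28 (SE 0.21, adjusted p 0.00091 by edgeR). The NR4A genes encode orphan nuclear receptors. NR4A1 went from 62.3, 73.2 and 68 CPM through 207, 208 and 242 CPM to 107, 114 and 106 CPM, a later change of -1.01 (SE 0.23, adjusted p 0.00723 by edgeR). NR4A3 went from 13.4, 13.5 and 15.7 CPM through 44.8, 44.5 and 48.4 CPM to 23, 20.2 and 21.2 CPM, a later change of -1.10 (SE 0.21, adjusted p 0.00249 by edgeR). Both remained above 0 h at 6 h, by 0.68, adjusted p 0.029 by edgeR and 0.60, adjusted p 0.0394 by edgeR on the log2 scale.

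Further members are named after their values were seen. NR4A2 fell by 0.68 (SE 0.19, adjusted p 0.0224 by edgeR) after a rise of 1.88. ATF3, a stress-induced repressor, fell by 0.75 (SE 0.10, adjusted p 0.000232 by edgeR) after a rise of 1.61. KLF6, a Kruppel-like factor, fell by 0.71 (SE 0.12, adjusted p 0.000906 by edgeR) and at 6 h had 158, 155 and 150.4 CPM where 0 h had 128, 120.2 and 127 CPM. FOSL1 was lower by a log2 change of -1.37 (SE 0.46, adjusted p 0.0494 by edgeR) on 16 to 20 reads in each 3 h library and 5 to 7 in each 6 h library, and its call was lost in 15 of 18 alternative settings of tool, scaling, filter, unit or libraries, among them leaving out any of the 6 libraries. The changes of MYC (-0.22, adjusted p 0.566 by edgeR), EGR1 (-0.14, adjusted p 0.667 by edgeR) and JUN (0.18, adjusted p 0.232 by edgeR) after 3 h did not pass the test; MYC had risen by 2.48 by 3 h and was still at 70.2, 80.3 and 87 CPM at 6 h.

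Promoters of 3 reversing genes are shown because the cyclic AMP response element (CRE) is a known motif of immediate early promoters; each window runs from 250 bases before the start to 50 after it. The sequences are those of RefSeq on GRCh38.p14, read in the direction of the gene, and capitals mark the CRE core TGACG on either strand, so that a full palindromic element counts as 2 overlapping matches. FOS lies at chr14:75278578-75278877 (+ strand), NR4A3 at chr9:99821635-99821934 (+ strand), and PER2, a clock gene described next, at chr2:238288561-238288860 (- strand).
FOS promoter: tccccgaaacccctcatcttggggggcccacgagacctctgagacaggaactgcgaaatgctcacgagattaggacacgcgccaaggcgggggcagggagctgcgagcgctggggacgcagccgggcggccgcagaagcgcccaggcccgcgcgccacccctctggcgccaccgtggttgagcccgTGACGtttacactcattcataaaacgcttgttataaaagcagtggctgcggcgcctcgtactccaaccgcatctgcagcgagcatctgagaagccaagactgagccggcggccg
NR4A3 promoter: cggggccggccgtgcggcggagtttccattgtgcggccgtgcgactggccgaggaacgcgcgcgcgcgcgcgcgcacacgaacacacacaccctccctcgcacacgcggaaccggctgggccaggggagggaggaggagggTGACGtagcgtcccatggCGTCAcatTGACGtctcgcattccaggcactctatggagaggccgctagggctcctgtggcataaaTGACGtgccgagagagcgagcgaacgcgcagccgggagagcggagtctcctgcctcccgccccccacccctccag
PER2 promoter: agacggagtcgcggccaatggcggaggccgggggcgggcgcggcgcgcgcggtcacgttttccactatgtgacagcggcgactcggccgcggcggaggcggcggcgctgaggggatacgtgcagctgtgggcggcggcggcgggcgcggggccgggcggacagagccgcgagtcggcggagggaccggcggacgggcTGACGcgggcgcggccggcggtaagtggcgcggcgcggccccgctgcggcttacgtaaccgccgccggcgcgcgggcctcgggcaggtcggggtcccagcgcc
The FOS and PER2 windows held 1 match each and the NR4A3 window 4. Of 21 immediate early genes with a promoter in the table, 13 held the core, as did 25% of all 27305 promoters and 32.5% of those of genes tested. Among genes that had risen by 3 h and then fell, the share was 44.8%, among genes that had fallen and then rose 28.4%, among those that began to rise 32.5% and among those that began to fall 31%. These are descriptions of letters, with no test.

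**Figure D2:**
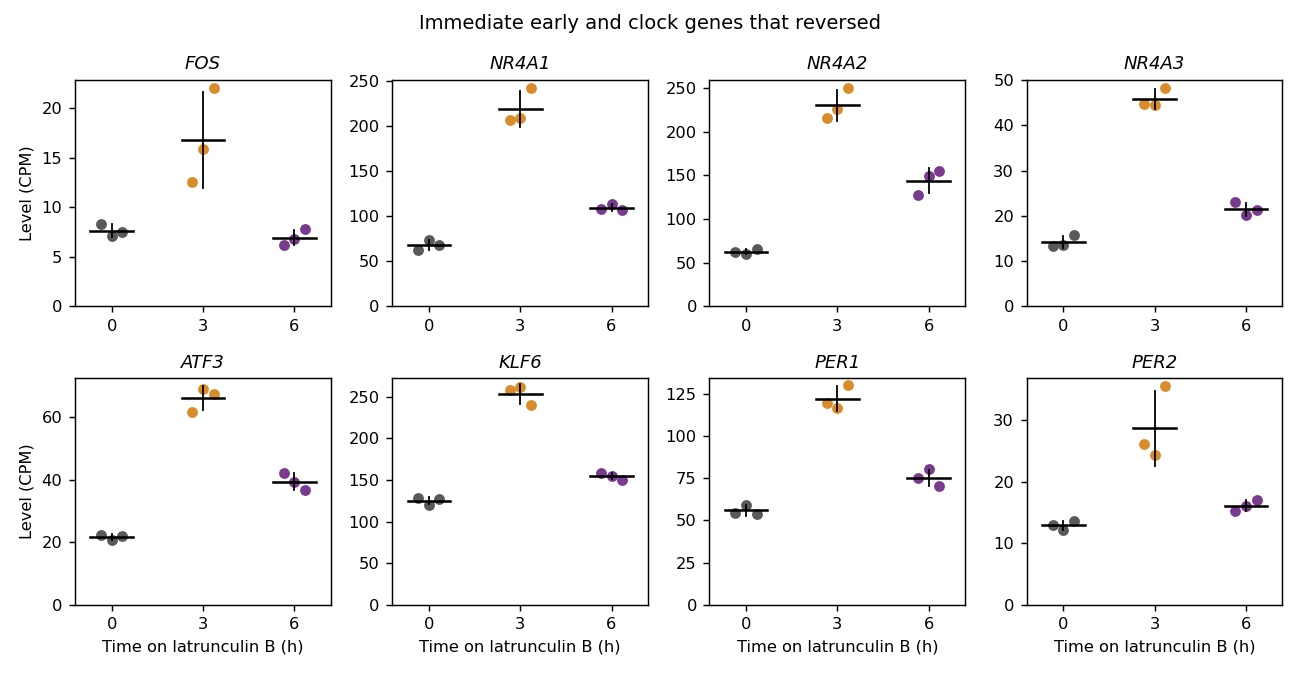
Levels in CPM (y axis, from 0) of 8 immediate early and clock genes against time on latrunculin B (x axis, in h), with 1 point per library, a bar at the mean of 3 libraries and a vertical line of 1 SD on each side. In each panel the 3 h libraries lie above all libraries of 0 h and 6 h, for example NR4A3 at 44.8, 44.5 and 48.4 CPM.

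Members of the clock list and of the ERK feedback list fell in the same interval. Of 17 clock genes tested, 6 were lower at 6 h (10.3% of all genes were) and 0 were higher by edgeR (0 at an unadjusted p under 0.05 and 0 by DESeq2), with a median log2 change of -0.10, where 7 had been higher at 3 h (16.8% of all genes were). On log2(TPM + 1), 3 were lower. PER1, a repressor of the clock, went from 54.5, 59.4 and 53.9 CPM through 119.8, 117 and 130.4 CPM to 75.1, 80.3 and 70.4 CPM, a later change of -0.70 (SE 0.10, adjusted p 0.000372 by edgeR). PER2 went from 13, 12.2 and 13.7 CPM through 26.2, 24.3 and 35.6 CPM to 15.2, 16 and 17 CPM, a later change of -0.84 (SE 0.15, adjusted p 0.00195 by edgeR). NR1D2, a nuclear receptor that represses clock genes, fell by 0.79 (SE 0.08, adjusted p 3.84e-05 by edgeR), and PER3 fell by 1.61 (SE 0.36, adjusted p 0.00602 by edgeR) on 54 reads or fewer in each of the 6 libraries. The call of PER2 was lost on log2(TPM + 0.1) and on log2(TPM + 1), and that of PER3 on log2(TPM + 1).

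Of 17 ERK feedback genes, 8 were lower (10.3% of all genes were) and 1 higher, with a median log2 change of -0.31. The count of lower members depended on the setting. It was 2 on TPM and 4 with the length offset. ETV5, an ETS factor downstream of FGF signals, began to fall (-0.94 (SE 0.27, adjusted p 0.0231 by edgeR)). SPRED1 and SPRED2, which restrain RAS signalling, had risen and then fell, with log2 changes of -0.56 (SE 0.06, adjusted p 2.42e-05 by edgeR) and -0.54 (SE 0.13, adjusted p 0.0118 by edgeR). The phosphatase DUSP4 fell by 0.56 (SE 0.17, adjusted p 0.0278 by edgeR). IL17RD, another inhibitor of FGF signals, rose by 0.82 (SE 0.09, adjusted p 6.91e-05 by edgeR). Without LatB 3 h replicate 3, 3 of the 17 were lower, without LatB 6 h replicate 1, 4, and without LatB 6 h replicate 2, 5. The calls of ETV5 and DUSP4 were lost in 7 and 5 of 20 alternatives. DUSP6, which was not called, had 55.6, 60.02 and 91.2 CPM at 3 h and 49.4, 53.7 and 56.6 CPM at 6 h. Among 32 genes of the ATF4 stress response, 6 were lower and 4 higher, where 10.3% and 11.9% of all genes were. CHAC1, which degrades glutathione, fell by 0.97 (SE 0.22, adjusted p 0.00729 by edgeR) after a rise of 2.43, while PSAT1, an enzyme of serine synthesis, rose by 0.68 (SE 0.18, adjusted p 0.0157 by edgeR); the call of PSAT1 was lost on TPM and without LatB 6 h replicate 1. Of 10 brakes of mTORC1, 4 were lower (10.3% of all genes were), among them DEPTOR (-0.81, adjusted p 0.00292 by edgeR) and CASTOR1 (-0.83, adjusted p 0.0422 by edgeR). The call of CASTOR1 was lost in 10 of 20 alternatives, among them leaving out any of the 6 libraries (edgeR adjusted p 0.0535 to 0.132).

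Among targets of MRTF and SRF, more members fell than rose. Of 34 tested, 10 were lower at 6 h than at 3 h (10.3% of all genes were) and 1, FHL1, was higher, with a median log2 change of -0.16, after 16 had been lower at 3 h (14.7% of all genes were) with a median of -0.22. Of the 11 called, 7 grew and 4 began. Without LatB 6 h replicate 3 the count of lower members was 6, with the length offset it was also 6, and with TPM in place of counts it was 5. VCL, the gene of vinculin, stood at 359, 357 and 351 CPM at 0 h, 245, 262 and 230.5 CPM at 3 h and 160.5, 162 and 166 CPM at 6 h. Each group lay below the one before, and the later change of -0.59 (SE 0.10, adjusted p 0.00082 by edgeR) followed an earlier one of -0.53. The tropomyosin gene TPM1 fell by 0.64 (SE 0.14, adjusted p 0.00505 by edgeR), from 335, 373 and 264 CPM to 224, 198 and 199 CPM. Caldesmon (CALD1) went from 1025, 1095 and 801 CPM to 686, 669 and 649 CPM, a change of -0.54 (SE 0.13, adjusted p 0.00972 by edgeR) whose call was lost on TPM.

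The cytoplasmic actin genes, not named by the rule and chosen after their values were seen, both fell. ACTB had 2503, 2659.5 and 2528 CPM at 0 h, 1774, 1858 and 1654 CPM at 3 h and 1310.1, 1302 and 1334 CPM at 6 h, a later change of -0.42 (SE 0.08, adjusted p 0.00183 by edgeR). ACTG1 had 2347, 2327 and 2349 CPM, then 1677, 1868 and 1465 CPM, then 1409.9, 1329.6 and 1332 CPM, a later change of -0.30 (SE 0.09, adjusted p 0.0304 by edgeR). SRF itself was not called after 3 h (-0.13, adjusted p 0.256 by edgeR). Of its ETS cofactors, ELK1 (-0.22, adjusted p 0.00917 by edgeR) and ELK4 (-0.50, adjusted p 0.000143 by edgeR) were lower. Unlike the actin genes, both had been called higher at 3 h than at 0 h and so reversed. ELK1 was not called after 3 h with the length offset (-0.08, edgeR adjusted p 0.639) or on TPM. For these actin genes, VCL, TPM1 and CALD1, the later change was not called against the earlier by the direct test, the edgeR adjusted p running from 0.465 to 0.944.

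Some targets of YAP and TEAD that had fallen by 3 h fell further. Of 26 tested, 6 were lower at 6 h than at 3 h and 3 higher (10.3% and 11.9% of all genes were), with a median log2 change of -0.23, after 10 had been lower at 3 h (14.7% of all genes were). Of the 9 called, 3 grew, 3 began and 3 had no class. By the direct test the later change differed from the earlier for 17 of the 26 (19% of all genes). With only the libraries of 3 h and 6 h in the fit, 10 of the 26 were lower at 6 h. CCN2, a matricellular protein (chromosome 6, 131948176 to 131951372), stood at 166, 178 and 178 CPM at 0 h, 9.46, 10.6 and 8.52 CPM at 3 h and 3.77, 3.18 and 3.11 CPM at 6 h. The groups did not overlap, and the later change was -1.50 (SE 0.42, adjusted p 0.0216 by edgeR); it was not called without LatB 3 h replicate 2 (edgeR adjusted p 0.0567) or without any single 6 h library (0.0515 to 0.069). ANKRD1, a muscle ankyrin repeat protein, went from 264, 293 and 279 CPM through 25.9, 26.9 and 19.6 CPM to 11.4, 11.8 and 11.2 CPM, a later change of -1.07 (SE 0.27, adjusted p 0.0115 by edgeR). For CCN2, ANKRD1 and AMOTL2, a partner of YAP, the earlier fall was larger than the later one, by 2.69, 2.46 and 0.93 on the log2 scale (edgeR adjusted p 0.0122, 0.00182 and 7.25e-05). CCN1 was at 5.4, 5.52 and 4.16 CPM and then 3.24, 3.33 and 3.11 CPM, and its change of -0.64 (SE 0.41, adjusted p 0.299 by edgeR) did not pass the test; with only these 2 groups in the fit it did (edgeR adjusted p 0.0159).

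The genes of the pathway itself split. YAP1 was higher at 6 h, at 306, 317 and 316 CPM against 248, 237 and 229 CPM (0.39 (SE 0.05, adjusted p 0.000223 by edgeR)), and its relative WWTR1, the gene of TAZ, was lower, at 92.3, 94.5 and 98.7 CPM against 125, 131 and 124 CPM (-0.41 (SE 0.07, adjusted p 0.000832 by edgeR)). Both changes continued those of the first 3 h. Of the 14 genes of the Hippo core and TEAD, 3 were higher and 4 lower in all (11.9% and 10.3% of all genes were).

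Promoters of 1 gene from each of these groups follow, ACTG1 at chr17:81512750-81513049 (- strand) and CCN2 at chr6:131951323-131951622 (- strand), from the same RefSeq table. Capitals mark the CArG box, which SRF binds, in ACTG1, and the TEAD motif GGAATG on either strand in CCN2.
ACTG1 promoter: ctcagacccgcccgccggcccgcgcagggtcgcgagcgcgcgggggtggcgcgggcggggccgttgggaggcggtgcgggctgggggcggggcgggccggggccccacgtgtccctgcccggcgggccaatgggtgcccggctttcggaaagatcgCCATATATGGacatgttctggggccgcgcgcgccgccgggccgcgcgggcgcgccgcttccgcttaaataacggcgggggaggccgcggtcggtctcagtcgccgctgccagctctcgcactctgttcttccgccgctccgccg
CCN2 promoter: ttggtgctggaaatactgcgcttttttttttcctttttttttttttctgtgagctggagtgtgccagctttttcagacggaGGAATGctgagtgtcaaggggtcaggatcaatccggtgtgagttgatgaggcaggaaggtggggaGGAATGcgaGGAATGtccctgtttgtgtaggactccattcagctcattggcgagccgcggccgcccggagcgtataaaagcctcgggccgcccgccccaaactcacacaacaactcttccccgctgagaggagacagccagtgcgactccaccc
The CArG box was found in 7 of 31 promoters of MRTF and SRF targets. TEAD motifs were found in 6 of 20 promoters of YAP and TEAD targets, and CCN2 held 3. Over all promoters the shares were 1.29% and 14%, and over promoters of genes tested 1.13% and 10.9%. Among genes that fell by 3 h and fell further they were 2.33% and 15.1%, with no test.

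**Figure D3:**
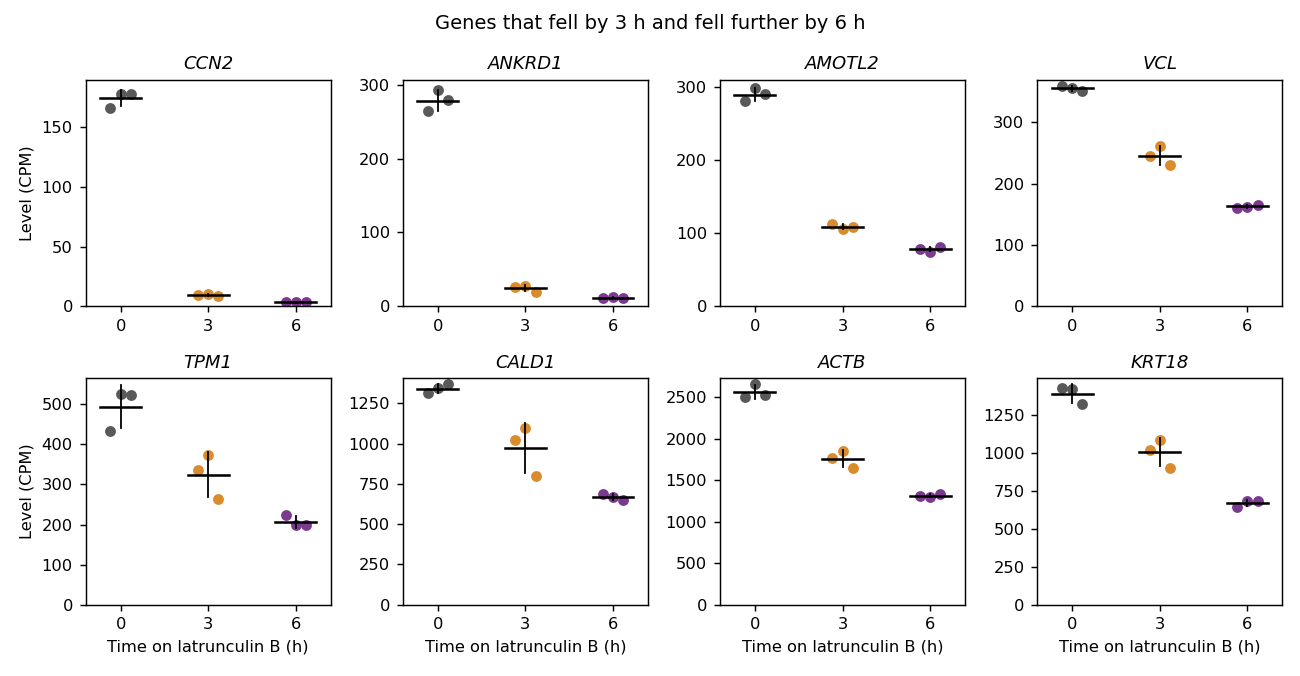
Levels in CPM (y axis, from 0) of 8 genes against time on latrunculin B (x axis, in h), with 1 point per library, a bar at the mean of 3 libraries and a vertical line of 1 SD on each side. CCN2, ANKRD1 and AMOTL2 dropped mostly before 3 h, whereas VCL, TPM1, CALD1, ACTB and KRT18 stepped down in both intervals, ACTB to 1310.1, 1302 and 1334 CPM at 6 h.

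Of 22 keratin and junction genes tested, 6 were lower and 2 higher, where 10.3% and 11.9% of all genes were. KRT18, a keratin of simple epithelia, fell from 1023, 1088 and 904 CPM to 646, 681 and 684 CPM (-0.58 (SE 0.07, adjusted p 9.69e-05 by edgeR)), and its partner KRT8 fell by 0.34 (SE 0.08, adjusted p 0.0109 by edgeR). KRT19 rose instead, from 651, 688 and 566 CPM to 989, 912 and 956 CPM (0.58 (SE 0.08, adjusted p 0.0003 by edgeR)). The tight junction genes TJP1 and CLDN4 fell, with log2 changes of -0.62 (SE 0.11, adjusted p 0.00204 by edgeR) and -0.54 (SE 0.07, adjusted p 0.000246 by edgeR). Of 20 integrins, ITGA6 alone was called, rising from 252, 261 and 245 CPM to 399, 402 and 410.2 CPM (0.68 (SE 0.04, adjusted p 1.29e-06 by edgeR)), while ITGA3 (-0.06), ITGA5 (-0.12) and ITGAV (0.20) were not called.

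By the class rule the endocrine factors NEUROG3 and INSM1 began to rise after 3 h, at low levels. INSM1 already had 63 to 93 reads per library at 3 h against 25 to 40 at 0 h, a rise that was not called. Of 21 factors tested, 5 were higher at 6 h than at 3 h and 2 lower (11.9% and 10.3% of all genes were), with a median log2 change of 0.48. The count of higher members was 3 on log2(TPM + 1) and 8 with only the libraries of 3 h and 6 h in the fit. NEUROG3 (ENSG00000122859.5; chromosome 10, 69571698 to 69573422) stood at 0.438, 0.603 and 1.36 CPM at 0 h, 0.799, 1.48 and 0.988 CPM at 3 h and 3.27, 3.41 and 4.23 CPM at 6 h, on 25 to 41 reads per library at 3 h and 86 to 102 at 6 h. The 0 h and 3 h libraries overlapped, the 6 h libraries lay above both, and the log2 fold change after 3 h was 1.74 (SE 0.40, adjusted p 0.00743 by edgeR). INSM1, a zinc finger factor of endocrine cells, rose from 2.97, 2.6 and 2.15 CPM to 6.01, 6.32 and 8.42 CPM (1.42 (SE 0.34, adjusted p 0.00986 by edgeR)); its change by 3 h missed the threshold (1.14, adjusted p 0.0562 by edgeR), and the later call was lost on log2(TPM + 1). NKX2-2 had risen by 3 h and had 2.09, 2.99 and 4.48 CPM at 6 h against 1.5, 1.8 and 1.36 CPM at 3 h, a change that just missed the threshold (1.03, adjusted p 0.0514 by edgeR) but was called by DESeq2 (adjusted p 0.0224). NEUROD1 (0.81, adjusted p 0.218 by edgeR) and PAX4 (0.75, adjusted p 0.256 by edgeR) were not called.

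RFX6, a factor needed for islet cells, rose by 0.73 (SE 0.17, adjusted p 0.00812 by edgeR). MYT1 was lower, at 0, 0.341 and 0.58 CPM against 1.15, 0.974 and 1.53 CPM, on 14 reads or fewer in each 6 h library. Its call was lost in 10 of 19 alternatives. Of 24 hormone and granule genes, 5 were higher (11.9% of all genes were) and 0 lower by edgeR (0 lower at an unadjusted p under 0.05 and 0 by DESeq2), with a median of 0.24. CPE, a carboxypeptidase that trims hormones, rose from 1301, 1353 and 1197 CPM to 1706, 1654 and 1699 CPM (0.39 (SE 0.06, adjusted p 0.000459 by edgeR)) and the amidating enzyme PAM by 0.37 (SE 0.06, adjusted p 0.00106 by edgeR). PCSK2 (1.88, adjusted p 0.00162 by edgeR), SCG2 (1.25, adjusted p 0.0424 by edgeR) and GHRL (1.06, adjusted p 0.0294 by edgeR) were higher at 140 reads or fewer per library. The call of SCG2 was lost in 10 of 20 alternatives and that of PCSK2 on TPM and with the length offset. The call of GHRL was lost in 7 of 19, and its change was 0.44 (edgeR adjusted p 0.589) with the length offset. On TPM, and without LatB 3 h replicate 1, LatB 3 h replicate 3, LatB 6 h replicate 2 or LatB 6 h replicate 3, 3 of the 24 were called higher.

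Of 21 progenitor factors tested, 6 were higher and 3 lower (11.9% and 10.3% of all genes were), with a median of 0.16. MNX1 (0.66, adjusted p 0.0185 by edgeR), FOXA3 (0.72, adjusted p 0.000171 by edgeR), FOXA1 (0.44, adjusted p 0.00493 by edgeR) and HNF4A (0.40, adjusted p 0.0064 by edgeR) rose, the call of MNX1 being lost in 4 of 20 alternatives. SOX9, which marks bipotent progenitors, had fallen by 3 h and came back, from 326, 297 and 316 CPM to 388, 394 and 395 CPM (0.33 (SE 0.08, adjusted p 0.00872 by edgeR)). PDX1, a factor that pancreas formation needs, was lower at 6 h, at 303, 288 and 306 CPM against 354, 375 and 395 CPM (-0.33 (SE 0.10, adjusted p 0.0271 by edgeR)), and its call was lost without any of 5 of the 6 libraries in turn (edgeR adjusted p up to 0.0967). NKX6-1 fell by 0.32 (SE 0.10, adjusted p 0.0297 by edgeR) after a rise of 0.60. PDK4, the kinase of pyruvate dehydrogenase that the study follows, had risen by 3.62 by 3 h and then held 381, 346 and 474 CPM at 3 h and 312, 393 and 391 CPM at 6 h, with overlapping groups and a change of -0.13 (SE 0.30, adjusted p 0.801 by edgeR). The study picked 9 genes from these libraries among others, so their count is not independent evidence: 5 of the 9 rose further after 3 h (MET, MAN1A1, RFX6, FOXA3 and FOXP1) and 0 fell by edgeR (0 at an unadjusted p under 0.05 and 0 by DESeq2).

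**Figure D4:**
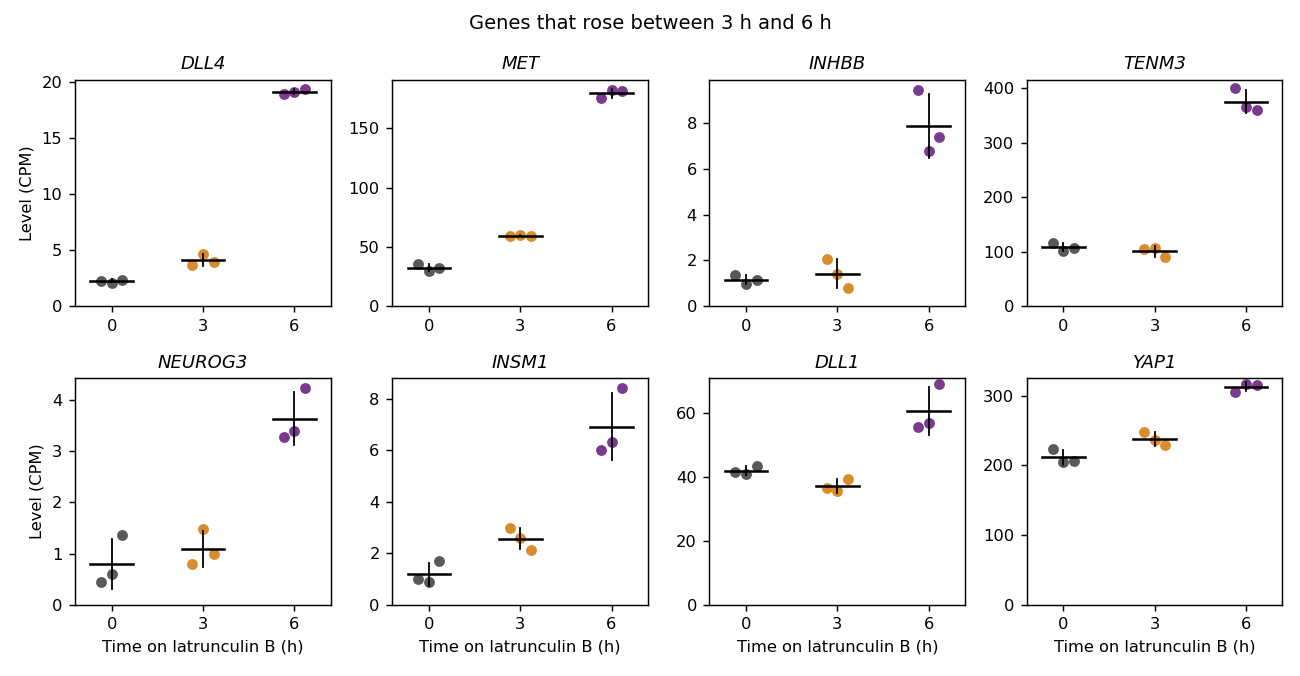
Levels in CPM (y axis, from 0) of 8 genes against time on latrunculin B (x axis, in h), with 1 point per library, a bar at the mean of 3 libraries and a vertical line of 1 SD on each side. All 6 h libraries lie above all 3 h libraries in each panel; NEUROG3 stays between 3.27 and 4.23 CPM at 6 h, whereas TENM3 and MET pass 100 CPM.

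Signalling genes changed in part in opposite directions within a pathway. In the Notch pathway, 4 of 24 were higher and 5 lower (11.9% and 10.3% of all genes were), with a median log2 change of -0.0032, and 7 were higher with only the libraries of 3 h and 6 h in the fit. The ligands DLL4 (above) and DLL1 rose, DLL1 from 36.5, 35.4 and 39.4 CPM to 55.7, 56.7 and 69 CPM (0.70 (SE 0.17, adjusted p 0.00987 by edgeR)), as did the receptor NOTCH1 (0.34, adjusted p 0.00517 by edgeR) and the DNA-binding partner RBPJ (0.35, adjusted p 0.000161 by edgeR). The co-activators MAML2 and MAML3, the receptor NOTCH2 (-0.34, adjusted p 0.00156 by edgeR) and the effectors HEYL (-1.32, adjusted p 0.0255 by edgeR) and HES4 (-0.54, adjusted p 0.00352 by edgeR) were lower, and HES1 was not called (-0.07, adjusted p 0.717 by edgeR). HEYL rested on 21 reads or fewer in each of the 6 libraries, and its call was lost in 6 of 19 alternatives.

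Of 23 WNT ligands and targets, 9 were higher (11.9% of all genes were) and 2 lower, with a median of 0.48. On log2(TPM + 0.1), 5 were higher. The target SP5 went from 0.48, 0.505 and 1.23 CPM to 1.98, 2.16 and 2.24 CPM (1.52 (SE 0.39, adjusted p 0.0128 by edgeR); not called without LatB 3 h replicate 1 or 2, edgeR adjusted p 0.0549 and 0.0507), the receptor LGR5 from 0.895, 1.37 and 1.67 CPM to 3.12, 3.52 and 3.23 CPM (1.33 (SE 0.24, adjusted p 0.00191 by edgeR)), and the inhibitor NKD1 rose by 1.11 (SE 0.20, adjusted p 0.00187 by edgeR), a call that was lost on log2(TPM + 0.1) and with the length offset. RNF43, which removes WNT receptors, had fallen by 3 h and rose to 32.1, 32 and 32.2 CPM (0.85 (SE 0.11, adjusted p 0.000162 by edgeR)), and AXIN2 rose by 0.55 (SE 0.16, adjusted p 0.0271 by edgeR). The ligand WNT7B fell (-0.60, adjusted p 0.013 by edgeR).

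In the list of TGF-beta and activin, 6 of 22 were higher (11.9% of all genes were) and 2 lower, with a median of 0.17. INHBB, a subunit of activin B and inhibin B, went from 2.08, 1.41 and 0.784 CPM to 9.48, 6.81 and 7.42 CPM, the largest change of the list (2.47 (SE 0.27, adjusted p 5.7e-05 by edgeR)), and it began after 3 h. The activin receptors ACVR1B, ACVR2A and ACVR2B rose by 0.48, 0.43 and 0.39 on the log2 scale. The repressor SKIL fell by 0.63 (SE 0.06, adjusted p 1.42e-05 by edgeR). On TPM, with the length offset, and without LatB 3 h replicate 2 or LatB 6 h replicate 1, 3 members were called higher. Of 25 growth factor receptors and ligands, 6 were higher (11.9% of all genes were) and 1 lower, with a median log2 change of -0.05. Among those higher, MET was ahead of EPHB3 (0.83, adjusted p 0.0149 by edgeR), EPHA4 (0.54, adjusted p 0.00682 by edgeR) and FGF10 (0.54, adjusted p 0.0359 by edgeR). Without LatB 6 h replicate 1, 3 were higher, and on TPM or with the length offset 2 were. With that offset EPHB3, EPHA4 and FGF10 were not called (edgeR adjusted p 0.0882, 0.282 and 0.064).

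Of 30 genes of ribosome biogenesis, 9 were higher (11.9% of all genes were) and 0 lower by edgeR (0 lower at an unadjusted p under 0.05 and 0 by DESeq2), with a median of 0.16. Among them were POLR1B, a subunit of RNA polymerase I (0.58 (SE 0.10, adjusted p 0.00161 by edgeR)), and BOP1 (0.48 (SE 0.10, adjusted p 0.00318 by edgeR)), a pre-ribosome factor whose call was lost on TPM and with the length offset. Of 49 cytosolic ribosomal proteins, RPL24 alone was called higher (0.18, adjusted p 0.0392 by edgeR), and its call was lost in 10 of 20 alternatives. Among 15 tubulins, 4 were higher and 0 lower by edgeR (1 lower at an unadjusted p under 0.05 and 0 by DESeq2). They were TUBB3 (0.74, adjusted p 0.000148 by edgeR), TUBA1A (0.59, adjusted p 0.00351 by edgeR), TUBB2B (0.46, adjusted p 0.00032 by edgeR) and TUBB (0.24, adjusted p 0.0345 by edgeR), the call of TUBB being lost in 7 of 20 alternatives. Several lists had shares below those of all genes in both directions, among them DNA replication (2 higher and 3 lower of 40), mitosis (1 and 3 of 40), cholesterol synthesis (1 and 2 of 24), glycolysis and hypoxia (2 and 3 of 31), actin monomer and filament turnover (2 and 3 of 35) and the basement membrane (1 and 1 of 20).

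**Figure D5:**
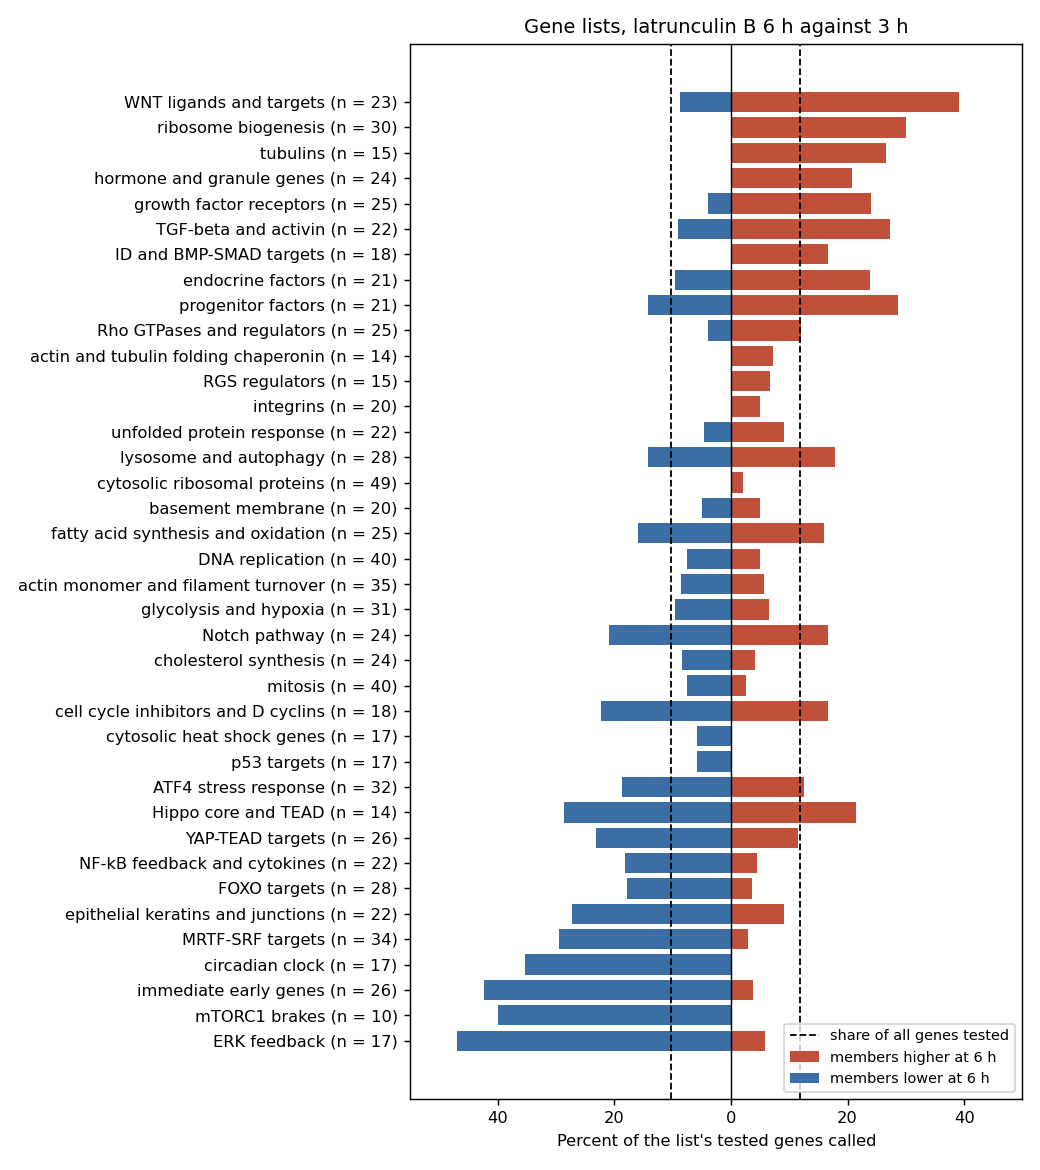
Share of each list's tested genes that were called (x axis, in percent) for 38 gene lists (y axis, with the number of genes tested), with members higher at 6 h than at 3 h to the right and members lower at 6 h to the left. Dashed lines mark the shares over all genes tested, 11.9% higher and 10.3% lower; WNT genes and ribosome biogenesis reach farthest to the right, and ERK feedback, mTORC1 brakes and immediate early genes farthest to the left.

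A further feature of the genes, looked at after the values were seen and given with no test, was the length of the gene on the genome. Of the 20 largest rises and falls by the ranking above, 11 spanned more than 100 kb, as did 21.3% of 15399 protein-coding genes tested. Genes that began to change made up 7.03% of those up to 10 kb, 8.35% from 10 to 30 kb, 9.83% from 30 to 100 kb, 11.7% from 100 to 200 kb, 17.4% from 200 to 500 kb and 11.9% above 500 kb. At 3 h against 0 h, the share of higher genes in the same order was 15.1%, 17.7%, 20.3%, 21.6%, 11.7% and 7.51%, and the share of lower genes went from 15.9% in the shortest to 6.48% in the longest. Above 500 kb, 8.87% were higher and 13.3% lower from 3 h to 6 h (293 genes). The median span was 58.1 kb for genes that began to fall, 28.8 kb for reversing genes that were higher at 6 h, and 34.3 kb for all protein-coding genes tested.

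Zinc finger genes were counted by symbols that start with ZNF, a set chosen after the values were seen. Of 508 tested, 147 were lower at 3 h against 0 h (28.9%, against 14.7% of all genes) and 71 higher (14%, against 16.8%). From 3 h to 6 h, 104 were higher (20.5%, against 11.9%) and 27 lower (5.31%, against 10.3%). Of the 508, 55 had fallen and then rose (10.8%, against 3.56% of all genes tested), and the medians over the 508 on the log2 scale were -0.11 at 3 h against 0 h and 0.08 from 3 h to 6 h.

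The later libraries, with 2 at 12 h and 3 at 24 h, place some of these levels as a description with no test. NEUROG3 averaged 11.2 CPM at 12 h and 44.9 CPM at 24 h, above its 3.64 CPM at 6 h. DLL4 stood at 17.8 and 16.7 CPM, close to its 19.1 CPM of 6 h. MET averaged 75.4 and 49.5 CPM, below its 179 CPM at 6 h. ACTB was at 1263 CPM at 12 h and 2346 CPM at 24 h, and TPM1 at 189.7 and 227 CPM. The vehicle controls of 24 h (2 libraries) differed from 0 h at 42 genes (0.251%), of which 10 were also called between 3 h and 6 h, 9 of them in the same direction.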

How the data were processed

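Poly(A) RNA of the 16 libraries was sequenced by the authors. The deposited tables list 177456 transcripts per library, with estimated counts, which need not be whole, and TPM values; the submitters' processing notes name Salmon 1.3.0 and the build hg38. The study's methods describe STAR and gene counts, another route, so the upstream settings are uncertain. Fold changes, standard errors and p-values in a further table by the authors, with 16 per-sample columns, were not used.

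Transcripts were joined to GENCODE 44 genes by identifier without version: 165533 matched, 151923 of them with the same version. From 2.92% to 3.04% of the reads of the 6 libraries were on unmatched transcripts and left out. Reads that fit several transcripts are shared among them by Salmon, so genes with close copies are uncertain; whether strand was used is not given in the sources used here. Estimated counts were summed over 35810 genes and rounded.

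The tool for the estimated counts deposited by the authors was edgeR 4.0.16 under R 4.3.3 (quasi-likelihood test, two-sided, TMM, filterByExpr by group, all 6 groups in 1 fit, no covariate), with Benjamini-Hochberg adjustment over 16705 genes. TMM factors of the 6 libraries ran from 0.948 to 0.962. The SE is the log2 fold change divided by the square root of F. No pair of libraries within a group agreed within sampling noise. Scripts were tested on simulated data.

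Named genes were called, had a symbol, a mean log2 CPM of 3 or more and libraries that did not overlap: the 10 largest rises and falls and, in each direction, the 4 largest that began, grew or reversed. To these were added a study panel of 13 genes and, with no filter on level, up to 4 called members of each of 50 lists. Other genes named in the text, among them MYC, EGR1, JUN, SRF, ACTB, ACTG1, KRT8, RNF43, AXIN2, HES1 and DUSP6, were chosen after their values were seen. The lists and the members were chosen with earlier results of these data known, and lists are described by counts and medians with no test of their own. Alternatives were DESeq2 1.42.0, other scalings, filters, thresholds and groups in the fit, an offset for transcript length, limma 3.58.1 on log2(TPM + 1) or log2(TPM + 0.1), the replicate number as a block, and leaving out each library. Promoters came from RefSeq on GRCh38.p14 (12205 tested genes matched by symbol, 128 of 165 named genes). Motifs were searched on both strands: the CArG box, GGAATG (TEAD), CAGNTG and CACGTG (E-boxes), TGACG (CRE core), TGANTCA (AP-1), GTAAACA (FOXO), TGATGNAA (ATF4) and CCGGAAG (ETS).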

Additional observations from a re-analysis of the deposited data

How the results depend on the processing

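Each gene called between 3 h and 6 h kept its direction in every alternative in which it was also called. With DESeq2 these were 3524 of 3864 calls, and with library size as the only scaling (no TMM) 3522 of 3700. Thresholds, transcript length, the unit and the groups in the fit moved the counts. In the order called, began, grew, reversed and differing between intervals, an adjusted p under 0.01 gave 1888, 844, 285, 516 and 1760 genes. A log2 fold change of at least 1 gave 298, 144, 22, 41 and 833. An offset for transcript length gave 2031, 880, 335, 553 and 1956. limma on log2(TPM + 0.1) gave 1788, 789, 272, 493 and 1740, and on log2(TPM + 1) gave 1751, 769, 269, 487 and 1732. Smaller fits gave higher counts. With only 3 h and 6 h in the fit, 4563 genes were called. With only 0 h, 3 h and 6 h in the fit, the counts in the same order were 4683, 1767, 1119, 1387 and 4082. The length offset allows for the transcripts in use by its construction. The cause of these shifts was not tested, for the length offset or for the other alternatives.

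Leaving out each library in turn gave 2549 to 3579 genes called, 1011 to 1474 that began, 424 to 667 that grew, 711 to 951 that reversed and 1992 to 2856 that differed between intervals. The growing genes fell to 424, 443 and 469 without LatB 3 h replicates 1, 2 and 3 and to 462 without LatB 6 h replicate 3. Without LatB 3 h replicate 3 there were 711 reversing genes, and 1992 that differed between intervals; without LatB 6 h replicate 3, 1011 genes began. Of 165 named genes, 157 were called, and 74 of these lost the call in at least 1 of 20 alternatives other than the thresholds; none changed sign while called.

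Replicate numbers are shared by the groups. Same-numbered libraries of 3 h and 6 h had correlations of deviations of 0.0614, -0.063 and 0.104. Those of libraries with different numbers ran from -0.123 to 0.0624. With so few libraries, these values cannot tell whether the numbers pair the samples. With the replicate number as a block, 3242 genes were called, 1366 began, 603 grew, 917 reversed and 2849 differed between intervals. Depth limits the low genes: NEUROG3 rested on 25 to 102 reads per library.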
